A study of Mus musculus with 40 samples.

Results

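ES-astrocytes stimulated with TGF-β2 were compared with control ES-astrocytes in 8 of the 40 libraries of the study, namely the 4 libraries titled astrocyte tgfb2 and the 4 titled astrocyte control. The cells came from mouse embryonic stem (ES) cells derived from B6.Cg-Tg(Hlxb9-GFP)1Tmj/J mice, whose transgene places enhanced green fluorescent protein under the Hb9 promoter, active in motor neurons. Glial progenitors were obtained from embryoid bodies patterned with retinoic acid and smoothened agonist, expanded with fibroblast and epidermal growth factor in serum-containing medium, and then matured with forskolin, which activates adenylyl cyclase. The stimulated group then received TGF-β2 (5 ng/ml) for 24 h and the control group a control medium, after which fluorescent ES-motor neurons were placed on both. Co-cultures were fixed 24 h after this step, and the methods give no separate time for those that were sorted. The RNA was thus taken later than 24 h after TGF-β2 was added. The co-cultured cells were then sorted again into samples of about 200 cells, to separate ES-astrocytes from the fluorescent ES-motor neurons. The methods name no astrocyte marker for this sort and do not state how the ES-astrocyte fraction was delimited. Both groups therefore share the serum, which is itself a source of TGF-β, the forskolin and the ES-motor neurons. The replicate letters A to D stand for vials of ES cells of defined passage, all from a single line.

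TGF-β ligands are secreted in a latent form, bind a type II receptor that recruits and activates a type I receptor, and lead to phosphorylation of SMAD2 and SMAD3, which enter the nucleus with SMAD4. Well-known target genes encode matrix proteins, actin regulators and inhibitors of the pathway itself, such as SMAD7, SKIL and PMEPA1. In astrocytes the pathway is known for its part in scar formation and matrix production, and in many epithelial cells it slows proliferation. The comparison asks how ES-astrocyte transcripts differ after this stimulus.

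Polyadenylated RNA of the cytosol was sequenced, and reads were counted on each gene. The control libraries A to D held 7866943, 13384392, 2848750 and 6467280 counts, and the TGF-β2 libraries A to D held 4166740, 10099902, 2787407 and 4661025. Levels are given in CPM, counts brought to the same library size with TMM factors, and a count of 0 allows up to 0.266 CPM in the deepest and 1.10 CPM in the shallowest of the 8 libraries. Without molecular identifiers, such limits and the intervals of single genes speak of counting error alone. Total counts, genes detected and the shares of counts on mitochondrially encoded, cytosolic ribosomal protein and the 50 most abundant genes did not pass a test between the groups (exact two-sided permutation tests, n = 4 each, p 0.429 to 0.914). All control libraries carry plate index 1 and all TGF-β2 libraries plate index 2, so that the effects of plate index and of TGF-β2 cannot be told apart in this comparison.

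Control library A stood apart from the other 7. It lay at −64.7 on the first principal component, against 9.63 to 45.1 for the other 3 controls and −34.3 to 25.6 for the TGF-β2 libraries. Mitochondrially encoded genes held 1.12% of its counts, against 3.53% to 3.87% in the other controls and 3.01% to 3.93% with TGF-β2. The 50 most abundant genes held 12.6% of its counts, 26.9% to 30.7% in the other controls and 19.6% to 29.9% with TGF-β2. Library A is also the control with the lowest summed level of astrocyte markers and of radial glia markers, at 179.7 and 1503 CPM. Of the 28 gene lists with at least 4 tested members described below, 9 had a median log2 fold change whose sign turned without it. The median over all genes tested turned as well, from −0.06 to 0.06.

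The label ES-astrocyte was carried by part of the astrocyte markers only. *Gfap*, the intermediate filament gene of mature astrocytes, and *Aqp4*, their main water channel, had 0 counts in all 8 libraries, as did *Aldh1l1*, *S100b*, *Aldoc*, *Gjb6* and *Mlc1*, and in all 8 of 20 astrocyte markers were at 0. The reactive astrocyte genes *Lcn2* and *Serpina3n* and the complement gene *C3* were at 0 counts as well. Of the 12 detected astrocyte markers the most abundant was *Slc1a2*, which encodes the glutamate transporter GLT-1. Summed astrocyte markers reached 179.7, 1134, 893 and 727 CPM in control libraries A to D and 480.2, 568, 617 and 789 CPM in TGF-β2 libraries A to D. All 16 markers of radial glia and neural progenitors were detected, led by *Fabp7*, a fatty acid binding protein of radial glia, and their sum was 1503, 4772, 3474 and 4254 CPM in the controls and 1946, 2295, 2822 and 2612 CPM with TGF-β2. All 16 neuronal markers were detected too, led by the growth cone gene *Gap43*, with sums of 3107, 5243, 3955 and 4587 CPM in the controls and 3799, 4433, 5344 and 6410.0 CPM with TGF-β2. Fewer cells of a type and less RNA per cell cannot be told apart in such samples, and the part of neuronal RNA in the results was not tested.

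No gene passed the test between TGF-β2 and control ES-astrocytes. The quasi-likelihood test of edgeR called 0 of 10794 genes (0%) with an adjusted p up to 0.05 and a log2 fold change beyond 1 in size. An unadjusted p under 0.05 was reached by 136 genes (1.26%), of which 97 were higher and 39 lower with TGF-β2. That is a smaller share than the 0.05 of genes such a threshold lets through where no gene differs. DESeq2 called 58 of 12599 genes (0.460%), 48 higher and 10 lower, and limma-voom called 0, with 837 at an unadjusted p under 0.05. Of the genes DESeq2 called, 23 were too sparse to be tested by edgeR, 12 had no count in any control library and 2 had none in any TGF-β2 library. Leaving out control A raised the DESeq2 count to 290 genes, and leaving out TGF-β2 library B lowered it to 34, while edgeR called 0 genes without any single library. The 4 values of a gene did not overlap between the groups in 168 genes that were higher with TGF-β2 (1.56%) and 80 that were lower (0.741%). Where nothing differs, 4 values against 4 separate in one direction or the other with a probability of 0.0286, so these shares are near those of chance.

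The genes named first are the 20 of smallest p in edgeR, all with an adjusted p of 0.9999 in edgeR, so that none passed. With TGF-β2, 18 of them were higher and 2 lower, none overlapped between the groups, and 7 had no count in any control library. DESeq2 called 19 of the 20, all but *Cask*. Since the genes were picked by p in this same comparison, their separation and their DESeq2 calls largely follow from the choice. They lend no further support to a difference.

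*Hoxb5*, on chromosome 11 (GRCm38 chr11:96303336-96306121), encodes a homeobox factor of hindbrain and cervical spinal cord identity. Its level was 166, 114, 111 and 228 CPM in control libraries A to D and 562, 382, 406 and 489 CPM in TGF-β2 libraries A to D. Every TGF-β2 library lay above every control, and the log2 fold change was 1.57 (SE 0.34; adjusted p 0.9999 in edgeR and 0.00839 in DESeq2). The antisense gene *Hoxb5os* overlaps it, was also called by DESeq2, and cannot be told apart from it without strand. *Hoxc4* (chr15:103018934-103036852), a homeobox gene of similar axial range, had 19.6, 18.0, 44.9 and 30.2 CPM in the controls and 202.2, 120.4, 68.5 and 68.0 CPM with TGF-β2. Its log2 fold change was 2.03 (SE 0.54; DESeq2 adjusted p 0.0392). *Rarb* encodes a retinoic acid receptor, whose gene responds to retinoic acid, and was read at 1.76 CPM in control A, at 0 in the other 3 controls and at 53.3, 36.6, 85.4 and 38.1 CPM with TGF-β2; the more abundant *Top2b* overlaps it on the other strand. *Pknox2*, a homeobox gene of the TALE class, had 3 counts over the 4 controls and 225 with TGF-β2, a ratio of 102 (95% Clopper-Pearson interval 34.3 to 496).

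*Inhba* (chr13:16011851-16031621) was the member of the TGF-β family among these genes. It encodes the βA subunit of activin, a ligand that signals through the same SMAD proteins as TGF-β. No control library had a count, and the TGF-β2 libraries had 4.89, 4.13, 21.4 and 43.5 CPM, which is at least 139-fold higher on summed counts against 3 counts over the control group (at least 69.0-fold without TGF-β2 library D). DESeq2 gave it an adjusted p of 8.09e-06. *Nupr1*, a stress-induced chromatin protein, had 82.4, 37.3, 22.6 and 137 CPM in the controls and 153, 876, 277 and 817 CPM with TGF-β2, a log2 fold change of 2.92 (SE 0.71). *Plk2*, a polo-like kinase induced by stress and by neuronal activity, had 23.2, 14.3, 1.46 and 8.25 CPM in the controls and 125, 82.2, 58.5 and 131 CPM with TGF-β2. Its log2 fold change was 3.06 (SE 0.75), and the groups were apart in every library.

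*Npnt* encodes nephronectin, a matrix ligand of integrins, and was at least 70.0-fold higher with TGF-β2 (45.6-fold without TGF-β2 library B), at 2.55, 9.93, 4.42 and 7.06 CPM against no count in the controls. *Rhog*, a small GTPase of membrane ruffling, was at least 131-fold higher (78.6-fold without library B), *B4galt4*, a galactosyltransferase, at least 116-fold, and *Spry3*, a member of the Sprouty family of receptor signalling inhibitors, at least 96.2-fold (62.5-fold without library B). *Stx3*, a syntaxin of membrane fusion, had 1 count over the controls and 305 with TGF-β2, a ratio of 413 (95% interval 73.6 to 16370.0). The phospholipid acyltransferase gene *Lclat1* had 1 count and 203 counts, a ratio of 275 (48.8 to 10910.0). *Cask*, a scaffold of cell junctions and synapses, had a log2 fold change of 1.74 (SE 0.45), and *Xrn2*, a nuclear exonuclease of transcription termination, 1.41 (SE 0.38). The other higher genes are noncoding. The lincRNA gene *Gm14005* was at least 226-fold higher (106-fold without library B, which held 374 of its 500 counts) and *Gm19938*, which lies within *Xkr4*, at least 56.4-fold. The lincRNA gene *AC133601.1*, which overlaps *Arhgap26*, had 2 counts in the controls and 201 with TGF-β2, a ratio of 136 (37.2 to 1132).

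The 2 lower genes were *Wdyhv1* and *Exo1*. *Wdyhv1* encodes an amidase that acts on N-terminal glutamine, and had 12.8, 24.2, 21.2 and 26.3 CPM in the controls and 0.637, 0.0983, 0.736 and 0.471 CPM with TGF-β2, where it rests on 8 counts. *Exo1*, an exonuclease of DNA repair and replication, had 23.8, 19.8, 18.6 and 73.6 CPM in the controls and 2.34, 4.23, 1.84 and 2.35 CPM with TGF-β2. The log2 fold changes were −5.44 (SE 1.29) for *Wdyhv1* and −3.64 (SE 0.94) for *Exo1*. Leaving out 1 library moved that of *Exo1* between −3.97 and −2.93.

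**Figure D1:**
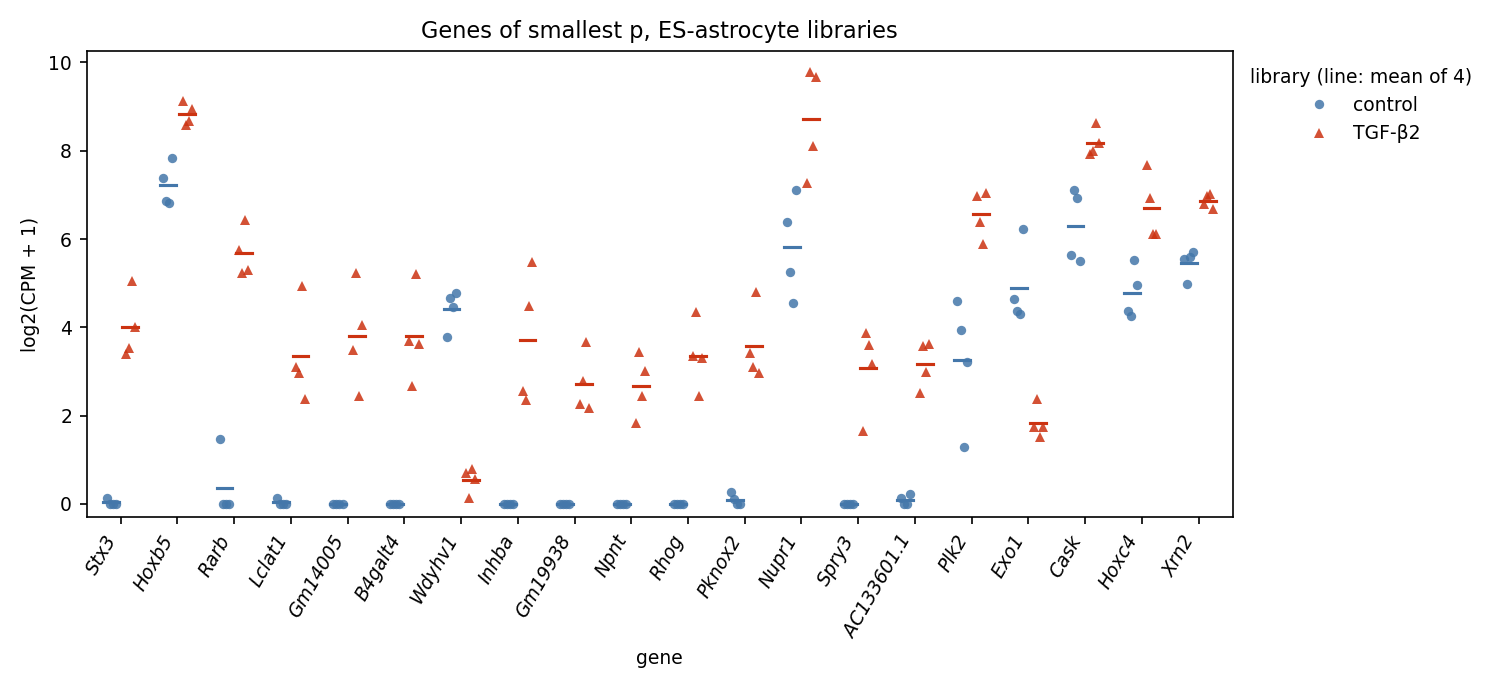
Levels of the 20 genes of smallest p in edgeR, on a vertical axis of log2(CPM + 1), with 1 point per library (circles, 4 control libraries; triangles, 4 TGF-β2 libraries) and a line at each mean. The groups do not overlap in any of the 20 genes, 7 of which lie at 0 in all controls, and none passed the test of edgeR. The genes were picked by p in this same comparison, so the separation largely follows from the choice.

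Several of these genes were present in ES-astrocytes given other stimuli. In a common scaling of the 20 ES-astrocyte libraries, *Hoxb5* averaged 153 CPM in the control, 454 with TGF-β2, 296 with IL-1α and TNF-α, 116 with C1q and C5 and 184 with IL-1β and IL-6 (4 libraries each). *Rarb* averaged 0.427, 52.7, 21.7, 4.10 and 28.9 CPM in the same order. *Inhba* averaged 0, 18.2, 0.357, 1.06 and 6.50 CPM. Some genes averaged more under another stimulus than with TGF-β2. With C1q and C5, *Npnt* averaged 11.8 CPM (5.93 with TGF-β2), *Pknox2* 14.5 (12.6), *Lclat1* 13.7 (11.9) and *Gm19938* 7.63 (6.18). With IL-1β and IL-6, *Lclat1* averaged 22.5 CPM and *AC133601.1* 13.5 (8.40 with TGF-β2). With IL-1α and TNF-α, *Gm19938* averaged 7.17 CPM. The other higher genes among the 20 named first averaged most with TGF-β2. Of the 31 genes with no count in any control and counts in all 4 TGF-β2 libraries, all 31 were detected in at least 1 of the 12 other stimulated libraries, and so were all 10 genes with the reverse pattern. These groups are set beside each other only as levels, since each would be compared with the same control libraries.

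Some components of the TGF-β pathway had few or no counts, while all 18 SMADs and pathway inhibitors were detected. Of the ligands, *Tgfb1* had 3 counts over the 8 libraries, and *Tgfb2* had 16.9, 25.2, 55.8 and 23.2 CPM in the controls and 4.46, 10.9, 0 and 39.8 CPM with TGF-β2. *Tgfb2* encodes the factor that was added, and its groups overlapped. Its log2 fold change was −1.13 (SE 1.25), from −2.5 to −0.66 with 1 library left out and −2.40 in limma-voom. *Tgfb3* ranged from 0 to 13.2 CPM in the controls and from 0.368 to 18.0 CPM with TGF-β2 (log2 fold change −0.13, SE 1.61), with its sign turning when control A or C or TGF-β2 library C or D was left out; it overlaps *Ttll5* on the other strand. Of 10 ligand genes 4 were tested, and the median log2 fold change was −0.35, also with *Inhba* set at its lower bound. The median was −0.76 without TGF-β2 library B and −0.11 without TGF-β2 library C. It turned to 0.40 in limma-voom and to 0.09 with the replicate letter as a block. After *Inhba* and *Tgfb2* the next by p was *Gdf11* at −0.56.

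The receptors were uneven. *Tgfbr2*, the type II receptor that binds TGF-β, had 0 counts in all 8 libraries, and of the other 12 stimulated ES-astrocyte libraries it was read only in 2 of those given C1q and C5. *Tgfbr1*, the type I receptor, was read in every library, at 46.5, 130.3, 175 and 20.9 CPM in the controls and 80.7, 73.9, 129 and 104 CPM with TGF-β2. Its log2 fold change was 0.06 (SE 0.61), and turned negative without control A, control D or TGF-β2 library C. *Tgfbr3*, the co-receptor betaglycan, stayed at or below 2.28 CPM. Over 14 receptor genes 7 were tested, 4 were positive and the median was 0.06 (−0.11 without control A or without TGF-β2 library C, and 0.56 without control C), with *Itgb8* (2.70), an integrin that activates latent TGF-β, *Itgb1* (0.41) and *Acvr2a* (0.30) of smallest p. Genes of latent TGF-β binding and activation had 3 of 4 tested members positive (median 0.44, but 0.07 without control A, −0.04 without TGF-β2 library A and 1.24 without control B), of which *Ltbp3*, a latent TGF-β binding protein, did not overlap between the groups, at 0 to 0.932 CPM in the controls and 2.35 to 11.3 CPM with TGF-β2 (log2 fold change 3.47, SE 1.42), where the strand of the reads is not known; *Fbn2* (−2.31) and *Dcn* (0.32) followed.

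Among the SMAD proteins, *Smad2* had 38.3, 35.5, 44.5 and 0.168 CPM in the controls and 63.5, 16.5, 20.6 and 33.2 CPM with TGF-β2 (log2 fold change 0.18, SE 1.08), its sign turning without control D or TGF-β2 library A. *Smad3* had no count in the controls, and 2.76 and 13.1 CPM in TGF-β2 libraries A and B with none in C and D, which is at least 65.9-fold higher on summed counts but rests on 2 libraries (10.99-fold without library B). *Smad4*, the shared partner, had a log2 fold change of 0.58 (SE 0.64), from 0.28 to 0.82 with 1 library left out. The inhibitor *Smad7*, a classical target, had 0, 1.07, 2.55 and 43.8 CPM in the controls and 8.92, 8.35, 22.1 and 5.41 CPM with TGF-β2. Its direction depended on single libraries, control D most, with a log2 fold change of −0.09 (SE 1.66) over all 8 libraries and 3.23 without control D. *Skil*, which encodes the SMAD repressor SnoN, had 30.9, 3375, 2041 and 2895 CPM in the controls and 865, 1841, 2408 and 3046 CPM with TGF-β2, a log2 fold change of −0.03 (SE 0.92; −0.44 to 0.30 with 1 library left out), with control A far below the others. *Pmepa1*, an inhibitor induced by the pathway, had no count in control A and averaged 7.74 ± 6.34 CPM in the controls and 23.1 ± 21.2 CPM with TGF-β2 (SD, n = 4). Its log2 fold change was 1.57 (SE 1.49), from 0.88 to 1.96 with 1 library left out. Of the 18 SMADs and pathway inhibitors 15 were tested, 10 with a positive log2 fold change (median 0.39, from 0.24 to 0.72 with 1 library left out), and *Ppm1a* (0.72), *Pmepa1* and *Smad4* had the smallest p.

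The target genes of TGF-β showed no called member. *Ccn2*, which encodes connective tissue growth factor, had 1.66, 0.710, 2.55 and 0.505 CPM in the controls and 4.04, 1.57, 2.58 and 3.06 CPM with TGF-β2 (log2 fold change 1.06, SE 1.09); the antisense gene *Gm15270* overlaps it. *Tgfbi* had 1 count in all. *Id1*, an inhibitor of differentiation induced mainly by BMP, had a log2 fold change of 0.24 (SE 0.66), but −0.16 without TGF-β2 library C and −0.34 in limma-voom, and *Id3* of −0.57 (SE 0.65), but −0.02 without control A. Of 50 target genes 28 were tested, 16 positive and 12 negative, with a median of 0.25 over all 8 libraries, 1.15 without control A and 0.16 without TGF-β2 library A. *Fn1*, the fibronectin gene, had the smallest p of them, at 33.3, 5.59, 101 and 26.4 CPM in the controls and 75.6, 163, 169 and 93.4 CPM with TGF-β2 (log2 fold change 1.60, SE 0.74), followed by *Tnc* (3.32) and *Tpm1* (0.50). *Ankrd1*, a target shared with the Hippo pathway, had no count in the controls and 1.06, 0.786, 2.58 and 5.18 CPM with TGF-β2.

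No tested gene of the BMP pathway was called in edgeR. *Chrd*, which encodes the antagonist chordin, had no count in the controls and 0.212, 4.13, 18.4 and 16.7 CPM with TGF-β2, at least 74.1-fold higher. DESeq2 called *Chrd*, which was too sparse to be tested by edgeR, and *Thpo* overlaps it on the other strand. *Fst*, which encodes follistatin, an antagonist of activin, had 1.76, 0.533, 0 and 0 CPM in the controls and 4.25, 8.45, 4.79 and 7.29 CPM with TGF-β2 (log2 fold change 3.33, SE 1.56). *Nog*, which encodes noggin, had 0 to 3.46 CPM in the controls and 0 to 2.21 CPM with TGF-β2 (log2 fold change −1.50, SE 1.77), the lowest fold change of the tested members, with overlapping groups. Over the BMP list 9 of 15 tested members were positive (median 0.10, turning negative when any of 5 libraries, control A among them, was left out), with *Fst*, *Fstl1* (−0.86) and *Id3* of smallest p.

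**Figure D2:**
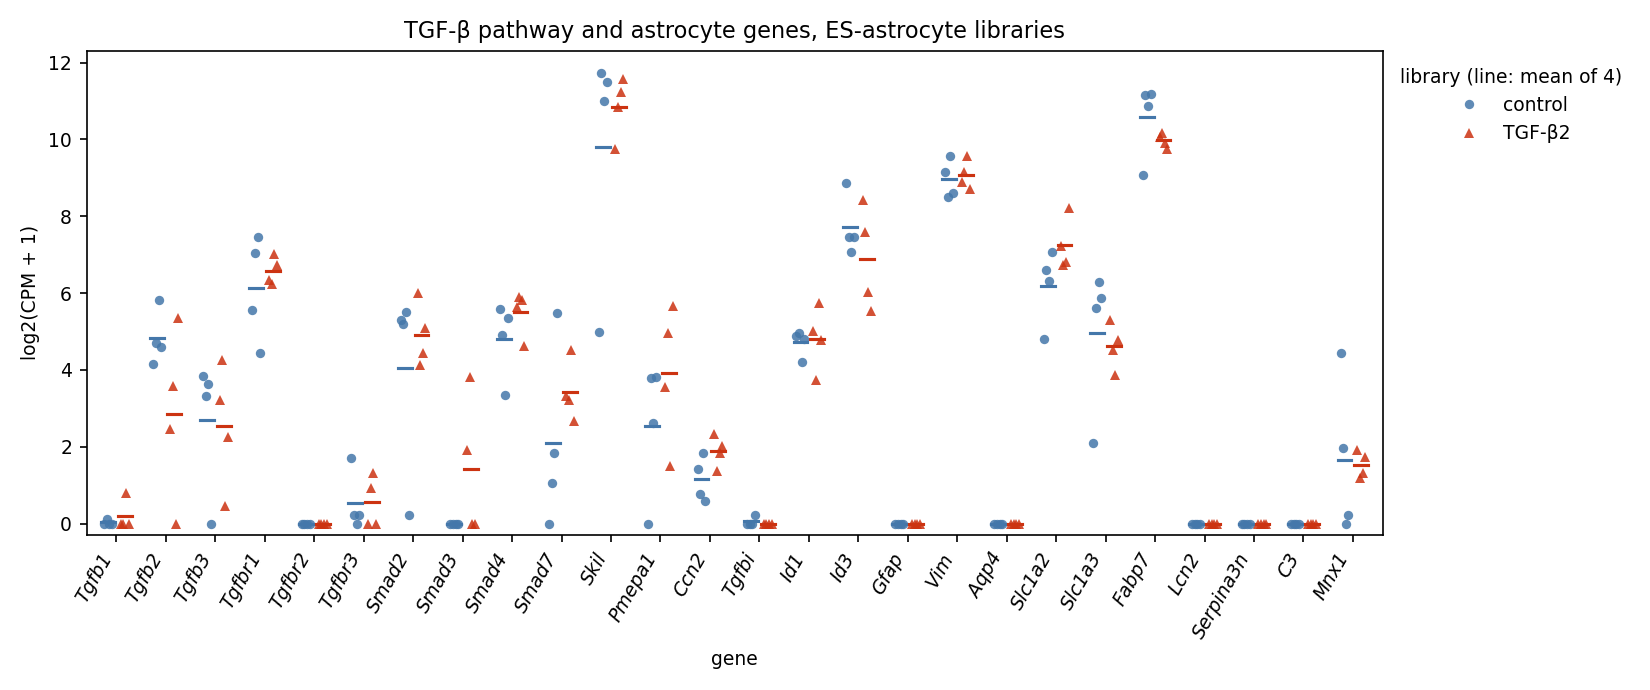
Levels of TGF-β pathway and astrocyte genes on a vertical axis of log2(CPM + 1), with 1 point per library (circles, 4 control libraries; triangles, 4 TGF-β2 libraries) and a line at each mean. *Tgfbr2*, *Gfap*, *Aqp4*, *Lcn2*, *Serpina3n* and *C3* lie at 0 in all 8 libraries, and control library A lies far below the other controls for *Skil*.

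DNA replication genes were lower in 27 of 30 cases, none of them called. The list holds helicase subunits, clamp loaders, polymerase subunits and enzymes of nucleotide supply, all 30 members were tested, and 90% had a negative log2 fold change with a median of −0.68, beside 5847 of 10794 genes (54.2%) and a median of −0.06 over all genes tested. Summed over the list, the controls A to D held 4814, 3895, 3781 and 3409 CPM and the TGF-β2 libraries A to D 2781, 2998, 2336 and 2006 CPM, so that every TGF-β2 library lay below every control. *Rfc4*, a clamp loader subunit, had 503, 321, 535 and 484 CPM in the controls and 212, 279, 168 and 158 CPM with TGF-β2 (log2 fold change −1.17, SE 0.33); *Eif4a2* overlaps it on the other strand. *Tyms*, the thymidylate synthase gene, had 279, 260.1, 253 and 185 CPM against 135, 142, 125 and 140 CPM (−0.85, SE 0.30), and *Rrm2*, a ribonucleotide reductase subunit, had a log2 fold change of −0.87 (SE 0.37). No member passed the test of edgeR, 3 had an unadjusted p under 0.05, and DESeq2 called none. The median stayed between −0.80 and −0.53 and the negative members between 25 and 28 of 30 when each library was left out in turn, control A included. In other fits the median was −0.72 (DESeq2 and RLE scaling), −0.67 (all ES-astrocyte libraries) and −0.53 (replicate block), and limma-voom gave −0.32, beside 0.22 over all genes in that fit.

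The lower level was not seen with TGF-β2 alone. In the common scaling of the 20 ES-astrocyte libraries, the summed list ranged from 3365 to 4671 CPM in the control and from 1981 to 2989 CPM with TGF-β2. The ranges were 2533 to 3211 CPM with IL-1α and TNF-α, 2118 to 3280.0 CPM with C1q and C5 and 2012 to 3373 CPM with IL-1β and IL-6. The libraries given IL-1α and TNF-α carry plate index 1, as the controls do, and those of the remaining stimuli plate index 2. Against IL-1β and IL-6, 11 of 28 tested members were negative with TGF-β2 and the median was 0.18.

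**Figure D3:**
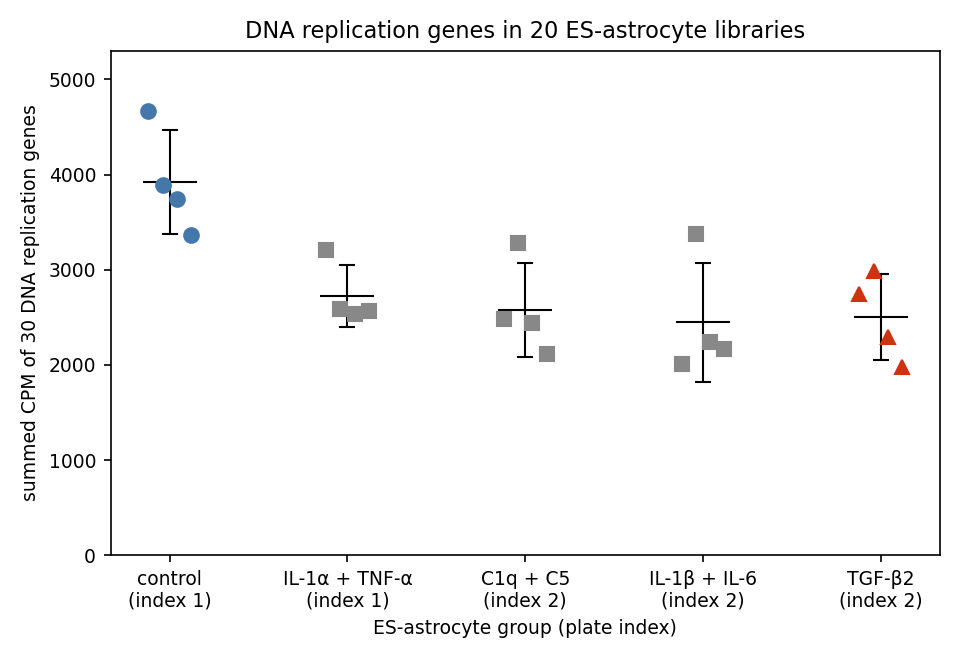
Summed CPM of the 30 DNA replication genes in each of the 20 ES-astrocyte libraries, by group and plate index; points are libraries, and the horizontal line and bar are the mean and SD of 4. The controls lie at 3365 to 4671 CPM and the TGF-β2 libraries at 1981 to 2989 CPM, with the libraries of the other stimuli between 2012 and 3373 CPM.

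Other genes of the cell cycle had smaller medians. Of 30 mitosis genes 25 were negative (median −0.35, −0.12 without control A and −0.53 without control B), with *Cenpa* (−0.65), the centromeric histone, *Birc5* (−0.71) and *Cdca3* (−0.60) of smallest p. The summed mitosis list had overlapping groups, at 3462 to 4341 CPM in the controls and 2012 to 3878 CPM with TGF-β2. Cell cycle inhibitors had 7 of 12 tested members negative (median −0.10, −0.35 without control C and −0.01 without control B). With the replicate letter as a block the median was 0.18. *Btg2*, an antiproliferative gene that also responds to stress, had 148, 132, 173 and 173 CPM in the controls and 98.3, 59.8, 46.7 and 72.7 CPM with TGF-β2 (log2 fold change −1.17, SE 0.36). *Cdkn1c* (−0.85) and *Mdm2* (0.90) followed. Genes of MYC and ribosome biogenesis had 10 of 25 positive (median −0.06, 0.01 without control A), with *Myc* itself (2.80), *Ddx21* (0.72) and *Bop1* (−1.46) of smallest p.

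Matrix and cytoskeleton genes had more positive than negative members, none of them called. Of 58 extracellular matrix and proteoglycan genes 28 were tested and 18 were positive (median 0.36, 0.74 without control A and 0.20 without control D). *Ptprz1*, a phosphatase of glial progenitors with a proteoglycan form, had the smallest p at −1.83 (SE 0.79), and *Thbs2* (3.16) and *Fn1* came next. The summed matrix list was 1270.0, 3239, 1991 and 1999 CPM in the controls and 2760.0, 2416, 2778 and 2620.0 CPM with TGF-β2, so that the groups overlapped through control B. Of 30 tested genes of the actin cytoskeleton and adhesion 18 were positive (median 0.24, but 0.86 without control A and 0.05 without TGF-β2 library B), with *Tln1* (−0.75), *Cnn3* (0.46) and *Tpm1* (0.50) of smallest p.

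Glial identity genes were given by the marker lists. Of 10 tested astrocyte markers 8 were negative (median −0.32, but −0.72 without control A and 0.09 without control B), and *Glul*, the glutamine synthetase gene, had 51.2 to 85.3 CPM in the controls and 18.8 to 37.2 CPM with TGF-β2, without overlap (log2 fold change −1.40, SE 0.49; DESeq2 adjusted p 0.0363); *Teddm2* overlaps it on the other strand. *Slc1a2* (0.99, SE 0.53) and *Clu* (−2.37) had the next smallest p. *Slc1a3*, the glutamate transporter GLAST, had 3.31, 47.5, 77.0 and 57.3 CPM in the controls and 38.0, 22.0, 13.6 and 26.4 CPM with TGF-β2 (log2 fold change −0.88, SE 0.83). *Vim*, the intermediate filament gene of immature glia, had a log2 fold change of 0.09 (SE 0.35), with its sign turning without control B, control D or TGF-β2 library C. Of 13 tested radial glia and neural progenitor markers 10 were negative (median −0.50, −0.89 without control A and −0.26 without control B). *Ptprz1* was among those of smallest p. *Fabp7* had 542, 2278, 1872 and 2314 CPM in the controls and 1073, 1157, 959 and 853 CPM with TGF-β2 (log2 fold change −0.79, SE 0.44), where control A alone lay below the TGF-β2 libraries.

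Reactive astrocyte lists held at most 8 tested genes each. Pan-reactive genes had 4 of 8 tested members positive (median −0.12), with *Stat3* (1.19), *Cp* (−2.23) and *Hspb1* (1.25) of smallest p. A1 genes, described in neurotoxic astrocytes, had 4 of 5 negative (median −0.31, 0.21 without control A), with *Fkbp5* (0.97), *Fbln5* (−0.31) and *Amigo2* (−0.58), and A2 genes 2 of 3 positive (median 0.47) with *S100a10* (0.47), *Tm4sf1* (1.23) and *B3gnt5* (−0.19). Cytokine and NF-kB genes had 4 of 5 negative (median −0.18; *Nfkb1* −1.57, *Sod2* −0.18, *Csf1* −0.72). Interferon and MHC class I genes had 4 of 7 positive (median 0.18; *H2-K1* 3.15, *Ifitm3* −0.24). The medians of the pan-reactive, cytokine and interferon lists also changed sign when single libraries were left out.

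Patterning pathways were represented by a few genes. *Gli3*, the transcription factor of Hedgehog signalling that acts mainly as a repressor, had 4.24, 80.2, 70.0 and 85.1 CPM in the controls and 0.637, 22.6, 9.20 and 5.18 CPM with TGF-β2 (log2 fold change −2.66, SE 1.11), with control A within the range of the TGF-β2 libraries. All 4 tested genes of 12 in the Hedgehog list were negative (median −0.95), among them *Gas1* (−1.32) and *Ptch1* (−0.34). With 1 library left out the median ranged from −1.34 to −0.69, and 3 of 4 were negative without control D. In the Notch list 4 of 9 were positive (median −0.26, 0.70 without control A and −0.85 without TGF-β2 library C), and *Notch3* had 0 to 0.729 CPM in the controls and 1.97 to 29.4 CPM with TGF-β2 (log2 fold change 5.04, SE 1.83), ahead of *Notch1* (0.70) and *Dll1* (−0.79).

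Metabolic and stress lists had medians near that of all genes or that turned with 1 library. ER stress genes had 11 of 20 negative (median −0.11, 0.01 without control A; *Pdia4* −0.80, *Manf* −0.44, *Dnajc3* −0.70). Immediate early and dissociation stress genes had 9 of 12 negative (median −0.32, 0.31 without control A), with *Btg2*, *Dusp6* (0.62) and *Hspa8* (−0.64) of smallest p. Genes of the cAMP response, the pathway that forskolin activates in both groups, had 8 of 10 negative (median −0.32, but −0.68 without control A and 0.15 without control C; *Rgs2* −1.14, *Creb1* −0.97, *Crem* −0.57). Glycolysis and hypoxia genes had 12 of 18 negative (median −0.20, 0.21 without control A; *Slc16a1* 2.04, *Egln3* −3.28, *Slc2a1* −1.66). Cholesterol synthesis genes had 9 of 18 positive (median 0.01, 0.61 without control A; *Apoe* −3.52, *Sc5d* 1.94, *Cyp51* 0.75).

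No tested marker of another cell type was called in edgeR. DESeq2 called 1, the motor neuron marker *Arhgap36*, higher with TGF-β2 (adjusted p 0.0406). It was too sparse to be tested by edgeR, with 3 counts over the controls and 11.9, 15.1, 8.10 and 0 CPM in TGF-β2 libraries A to D. Neuronal markers had 11 of 15 tested members positive (median 0.10, −0.09 without TGF-β2 library D), with *Gap43* (0.75, SE 0.32), *Syt1* (2.29) and *Snap25* (−0.57) of smallest p. Motor neuron markers had 5 of 7 negative (median −0.72, 0.46 without control A; *Lhx4* −0.72, *Lhx3* −1.74), and summed to 212.9, 294, 178 and 508 CPM in the controls and 180.1, 223, 310 and 402 CPM with TGF-β2. *Mnx1*, which encodes Hb9, had 20.6 CPM in control A, 2.93, 0 and 0.168 CPM in the other controls and 2.76, 1.28, 1.47 and 2.35 CPM with TGF-β2, with a log2 fold change of −1.59 (SE 1.67) and of 0.87 without control A. Fibroblast and mesenchyme markers had 5 of 6 tested members negative (median −0.70, −0.002 without control A and 0.32 without control B; *Fbln1* −0.58, *Col1a2* −1.18, *Col1a1* −0.95). Of the oligodendrocyte lineage only *Cnp* (0.95) and *Nkx2-2* (−0.05) were tested, of microglia only *Cd68* (−0.73, and −0.05 without control A) and of pluripotent cells only *Sall4* (−1.80), with 8 of 12 microglia and 8 of 12 pluripotency markers at 0 in all 8 libraries. No endothelial or ependymal marker was tested, and 7 of 10 and 5 of 8 of them were at 0.

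**Figure D4:**
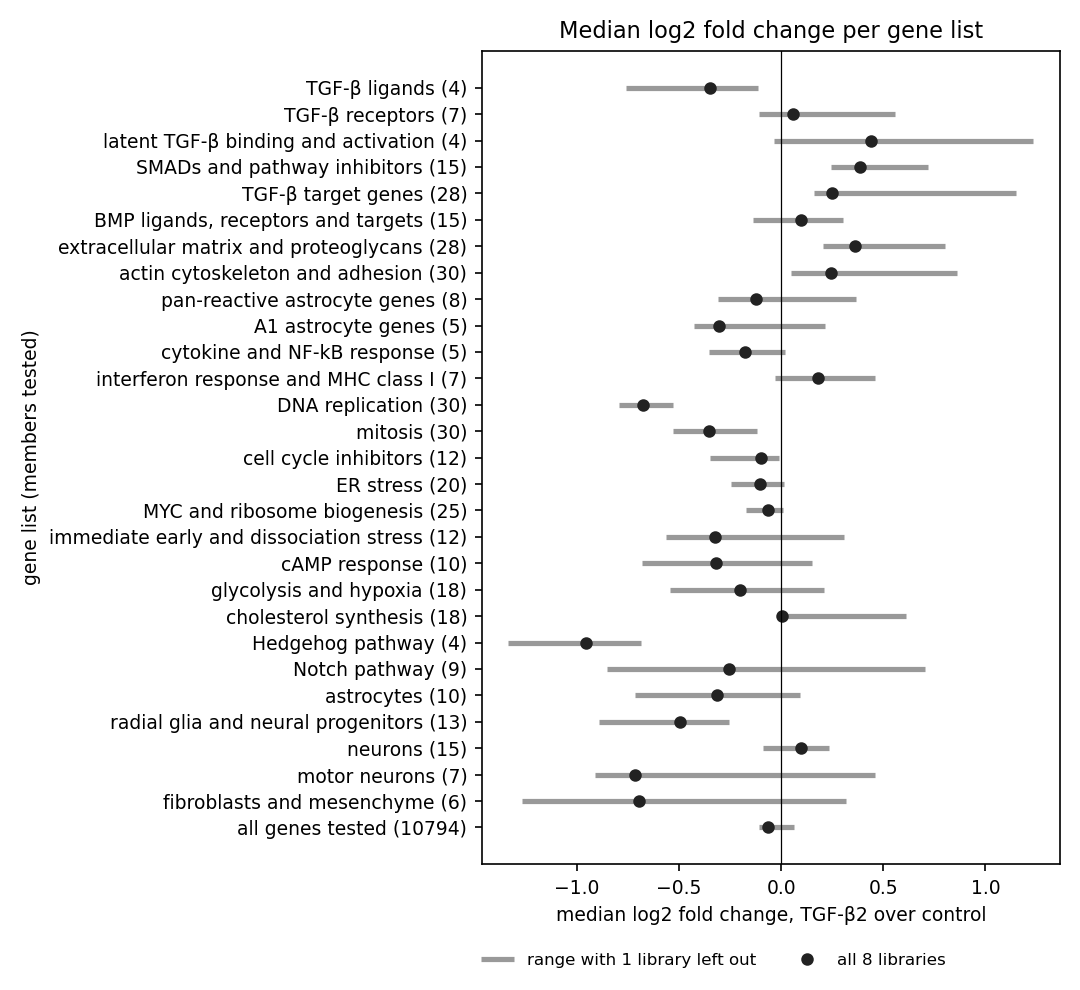
Median log2 fold change (TGF-β2 over control) of each gene list with at least 4 tested members, with the number tested in parentheses; points are the medians over all 8 libraries and bars the range when 1 library was left out in turn. The DNA replication list lies at −0.68 with a range of −0.80 to −0.53, and the median of all genes tested lies at −0.06.

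The second principal component, examined after the first, held 16.4% of the variance, with the controls at −35.4 to −1.83 and the TGF-β2 libraries at 0.931 to 50.5. The exact two-sided permutation test gave p = 0.0286 on this component, the smallest that 4 against 4 allow, and 0.0857 adjusted over the 3 components tested. With components computed anew, the groups overlapped on the second without control A (exact p = 0.229), without TGF-β2 library A (exact p = 0.114) and without TGF-β2 library C (exact p = 0.914). On the first component (29.2%) the exact test gave p = 0.714.

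TGF-β2 was also compared directly with IL-1β and IL-6 in ES-astrocytes, groups that share plate index 2 and no library. The quasi-likelihood test of edgeR called 0 of 10384 genes (0%), with 233 at an unadjusted p under 0.05, limma-voom called 0 (706 at that p) and DESeq2 called 62 of 12804 (0.484%). *Rhog* was at 0 in all libraries given IL-1β and IL-6, as it was in the controls, and *Npnt* averaged 0.0508 CPM there against 5.93 CPM with TGF-β2. With C1q and C5, however, *Npnt* averaged 11.8 CPM. *Hoxb5* (log2 fold change 1.31, SE 0.34), *Hoxc4* (1.73, SE 0.69) and *Nupr1* (2.06, SE 0.72) were higher with TGF-β2 than with IL-1β and IL-6, while *Stx3* (0.55, SE 1.02) and *Rarb* (0.87, SE 0.60) lay within 2 SE of 0. *Fabp7* had a log2 fold change of −0.70 (SE 0.28). None of these passed in edgeR. The libraries with TGF-β2 enter both comparisons.

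Whether the response differed from that of the ES-motor neurons sorted from the same co-cultures was tested by the interaction of TGF-β2 with cell type over 16 libraries. Those neurons were added only after the 24 h of stimulation. The interaction therefore sets stimulated ES-astrocytes against ES-motor neurons cultured on them, which were not themselves stimulated. The paper judges any carry-over of added factors in the medium to be small and likely negligible. The edgeR test called 0 of 11967 genes (0%), with 442 at an unadjusted p under 0.05, limma-voom called 0 (863 at that p) and DESeq2 called 17 of 13275 (0.128%), among them *Stx3*, *Exo1*, *Pknox2* and *Rhog*. Without control ES-astrocyte library A edgeR called 4 genes (among them *L1cam*, *Mturn* and *Rarb*), without TGF-β2 library B 1 (*Samd5*) and without TGF-β2 library D 1 (*Arhgap36*). For ES-motor neurons cultured on TGF-β2 against those on control ES-astrocytes, edgeR called 1 of 7947 genes and DESeq2 17 of 12168. The edgeR call was *Hoxa5* (log2 fold change 3.05, SE 0.44, adjusted p 0.0103), and its interaction was −1.87 (SE 0.59; adjusted p 1.0). *Hoxb5* had a log2 fold change of 2.42 (SE 0.44; edgeR adjusted p 0.0584) in the ES-motor neurons, and its interaction was −0.87 (SE 0.57; adjusted p 1.0 in edgeR). *Hoxc4* had 2.07 (SE 0.71) there and an interaction of −0.01 (SE 0.75). The ES-motor neuron groups carry the same plate indices as the ES-astrocyte groups of the same treatment.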

How the data were processed

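Reads of libraries made from about 200 sorted cells were mapped with STAR, and the authors deposited the raw count of each Ensembl gene in each of the 40 samples. Not given in the sources used here are the STAR version, genome build, annotation, strand setting and counting tool. Symbols and coordinates come from GENCODE M21 (GRCm38), which named 55227 of 55487 genes, and the other 260 held 0.117% of counts.

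The 4 TGF-β2 and 4 control ES-astrocyte libraries were tested with edgeR 4.0.16 in R 4.3.3 (filterByExpr, TMM, glmQLFit robust, glmQLFTest). Calls needed a p of 0.05 or less after Benjamini-Hochberg adjustment and a log2 fold change beyond 1 in size. SE was taken from the log2 fold change and F. DESeq2 1.42.0, limma 3.58.1 (voom with quality weights), RLE scaling, other filters (none, or a minimum count of 50 in place of 10), a replicate block and omission of each library were alternatives, and scripts were tested on simulated data. Principal components used rlog values of 500 genes. Tables, exact tests and plots used Python 3.11.15 (numpy 2.4.6, pandas 2.3.3, matplotlib 3.10.9, scipy 1.17.1).

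Genes with no count in a group are given as a bound against 3 counts over that group. Named were the called genes and then those of smallest p up to 20, fixed pathway and astrocyte genes, and 3 members of smallest p of each of 34 lists; others were chosen after their values were seen. A few genes of these sets are not reported here. Members and lists were chosen with earlier results of these data known. Replicates are separate vials of 1 line.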

Additional observations from a re-analysis of the deposited data

Results flagged for a closer look

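In 14 of 102 groups of 4 values, 1 library lay far from the other 3, measured as its gap to the nearest of them over the whole range. Chance alone gives about 1 in 20 for normally distributed values. Whether CPM values follow that shape was not tested, so the rate is only a rough guide. Control library A accounted for 7 of the 14, control D for 3, TGF-β2 library C for 3 and control B for 1. In 6 of the 14, 3 of them from control A, the other 3 values were 0, which puts the measure at its maximum whatever the level, so that this rate does not apply to them. Mitochondrially encoded genes held 1.12% of the counts of control A, against 3.53% to 3.87% in the other controls. Control A also stood apart in *Id3* at 468 CPM (the others 133 to 174), in *Mnx1* at 20.6 CPM (0 to 2.93), in *Tgfbr3* at 2.28 CPM (0 to 0.178) and, with the other 3 controls at 0, in *Rarb* at 1.76 CPM and in *Stx3* and *Lclat1* at 0.104 CPM each, a single count. Control D stood apart in *Exo1* at 73.6 CPM (18.6 to 23.8), *Smad7* at 43.8 CPM (0 to 2.55) and *Tgfbi* at 0.168 CPM. TGF-β2 library C held 29.4 CPM of *Lclat1* (the others 4.24 to 7.65), 26.9 CPM of *Pknox2* (6.82 to 9.77) and 0.736 CPM of *Tgfb1*. Control B held 0.0888 CPM of *Tgfb1*, from 1 count.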

How the results depend on the processing

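The edgeR count of 0 called genes for TGF-β2 against control held under RLE scaling, no filter, a stricter filter (8103 genes), limma-voom, edgeR without robust dispersion, a threshold of 0.1, no minimum fold, 1 fit over all ES-astrocyte libraries and omission of each library; DESeq2 called 58. The direct comparison with IL-1β and IL-6 gave 0 calls under the same settings and 62 in DESeq2, and the interaction 0 in its other edgeR and limma-voom fits, 0 to 4 on omission of single libraries and 17 in DESeq2. The cause was not tested. The DESeq2 count moved between 34 and 290 when libraries were left out, an alternative chosen after seeing the data. In the shallowest library 3 counts correspond to 1.10 CPM, so genes near that level can be missed.

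With the replicate letter as a block edgeR called 0 genes in each comparison. Same-letter control and TGF-β2 libraries did not deviate together for every letter. Their deviations correlated at 0.427 for A, −0.0417 for B, 0.0324 for C and 0.0889 for D, and only letter A matched best with itself. The letter was therefore used as a block in an alternative only. The block turned *Tgfb3* to 0.20, *Smad7* to 2.90, *Skil* to 0.72 and *Mnx1* to 0.72 (log2 fold change), and limma-voom turned *Tgfb3* to 1.66, *Smad7* to 1.47, *Id1* to −0.34 and *Mnx1* to 1.80. Of 274 values of 36 named genes under such settings 247 kept direction and call, 8 reversed and 19 were called by DESeq2 only. Of the medians of 28 gene lists, 12 turned sign in limma-voom, 9 with the block and 0 to 9 when 1 library was left out. The median over all genes tested also turned, from −0.06 to 0.22 in limma-voom, 0.10 with the block and 0.06 without control A. The DNA replication median kept its sign, at −0.32 in limma-voom.

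Leaving out TGF-β2 library B, chosen after seeing the data, lowered the bound for *Smad3* from 65.9-fold to 10.99-fold. Leaving out 1 library reversed 21 of 288 named gene values. The ranges were −1.03 to 0.24 for *Tgfb3*, −0.28 to 0.56 for *Tgfbr1*, −0.34 to 0.44 for *Smad2*, −0.67 to 3.23 for *Smad7*, −0.44 to 0.30 for *Skil*, −0.16 to 0.49 for *Id1*, −0.11 to 0.33 for *Vim* and −1.99 to 0.87 for *Mnx1*. Differences of library measures (TGF-β2 minus control) ranged from −208 to 1239 genes detected, and in percent of counts from −0.277 to 0.641 for mitochondrial, −0.200 to 0.358 for ribosomal protein and −3.53 to 2.52 for the 50 most abundant genes.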

Other observations

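The homeobox genes of the Hox clusters, which give cells their position along the body axis, were examined as a group after the values of *Hoxb5* and *Hoxc4* had been seen, and no test is given for them. The counts cover 39 Hox genes, of which 24 had reads in the 8 libraries and 15 were tested by edgeR. Of these, 13 had a positive log2 fold change with TGF-β2 and 2 a negative one, with a median of 0.63 beside −0.06 over all genes tested, and 10 to 14 were positive when each library was left out in turn. *Hoxa5*, a paralog of *Hoxb5*, averaged 74.2 CPM in the controls and 168 CPM with TGF-β2, and did not overlap between the groups; the spans of *Hoxa3* and of an antisense gene, *Hoxaas3*, overlap it and *Hoxa4*. *Hoxa4* averaged 28.6 and 56.0 CPM, also without overlap, while *Hoxa2* (80.8 and 68.2 CPM) and *Hoxa3* (39.8 and 33.6 CPM) overlapped and were the 2 negative genes. The posterior genes *Hoxa10*, *Hoxc10* and *Hoxd10* had no count in any of the 8 libraries.

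Other genes that DESeq2 alone called included *Zfp24*, a zinc finger factor, at 22.7 CPM in the controls and 73.2 CPM with TGF-β2, *Ets1*, a transcription factor of the Ets family, at 1.02 and 10.9 CPM, and *Napepld*, the enzyme that forms N-acylethanolamines, at 12.4 and 0.151 CPM (named after their values were seen). Each of these did not overlap between the groups.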
